A study of Mus musculus with 16 samples.

Results

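The developmental sarcomere isoforms are contractile proteins that skeletal muscle makes in the embryo, in the newborn and again during regeneration, before or beside the isoforms of the adult fiber. The 8 genes described here were chosen by name, with earlier results of these data known: Myh3, Myh8, Actc1, Myl4, Tnnt2, Tnni1, Tnnt1 and Mybph. They are 8 of the 34836 gene names on the array, are read by 13 probes, and all 8 were among the 20317 gene names whose median log2 signal reached the minimum of 5 for testing.

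The study asked how myoblasts derived from satellite cells change as they approach cell-cycle exit with and without the fiber they normally sit on. RNA of male C57Bl/6J mice aged 11 to 13 weeks was hybridized to one-color mouse arrays in 4 groups of 4 arrays each: dispersed myoblasts, grown on plates away from the fiber, and myofiber-associated myoblasts, grown on explanted single fibers and stripped from them with trypsin, each at 48 and at 72 hr after isolation. A dispersed replicate came from 1 mouse and a myofiber-associated replicate from 2 mice, and 1 of the myofiber-associated 48-hr replicates, here called replicate 10-11, was a pool of 2 preparations. All 8 myofiber-associated arrays lay on 1 slide and all 8 dispersed arrays on the other, which means that the culture and its slide cannot be told apart. Each slide held its 72-hr samples in columns 1 and 2 and its 48-hr samples in columns 3 and 4, so time and column cannot be told apart either.

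In a sarcomere, myosin heavy chains pull on actin filaments, and the troponin complex on those filaments makes the pull depend on calcium. Most of these proteins come as a family of isoforms from separate genes, and a muscle cell exchanges developmental isoforms for fast or slow adult ones as it matures. Differentiating myoblasts switch on many of these genes around the time they leave the cell cycle and fuse, so their messages are widely used as signs of early differentiation and of regeneration.

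Values below are normalized log2 signals, given in the order of the replicate numbers, and a difference of 1 on this scale is a doubling. A difference was called when limma, two-sided, gave an adjusted p under 0.01 over the 20317 gene names (Benjamini-Hochberg), with an exact permutation test of each member beside it, whose smallest p for 4 against 4 arrays is 0.0286. In dispersed myoblasts, 4 of the 8 members rose from 48 to 72 hr (Myh3, Tnnt1, Tnni1 and Myl4) and 1 fell (Myh8), 5 in either direction, where 7.37% of all tested genes rose, 6.35% fell and 13.7% were called in either direction. In myofiber-associated myoblasts 1 member rose over the same interval, Myh3, and 0 fell, where 3.74% of genes rose, 1.75% fell and 5.48% were called either way. Bulk RNA was measured, so fewer cells of a type and less RNA per cell cannot be told apart in any of these differences. The difference between these changes, dispersed minus myofiber-associated, was called for 1 member, Actc1, which was higher, where 1.08% of genes were higher, 2.37% lower and 3.45% either. Between the cultures, 6 members were higher in myofiber-associated myoblasts at 48 hr and 1, Myh3, was lower, where 16.1% of genes were higher, 27% lower and 43.2% either. At 72 hr 6 members were higher and 0 lower, where 11.5% of genes were higher, 15.6% lower and 27.1% either. The comparisons share groups of arrays and are not independent of each other.

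The median log2 difference of the 8 members was 1.29 in dispersed myoblasts over time, beside 0.02 over all tested genes, and 0.64 in myofiber-associated myoblasts, beside 0.06. It was 3.74 between the cultures at 48 hr, beside -0.12 over all genes, and 2.28 at 72 hr, beside -0.02. For the dispersed change minus the myofiber-associated change it was -0.15, beside -0.07. Of the 8 members, 7 had a difference above 0 in dispersed myoblasts over time, beside 11165 of the 20317 tested genes. In myofiber-associated myoblasts 5 did, beside 11586 genes. Between the cultures 7 members were above 0 at each time, beside 8419 genes at 48 hr and 9681 at 72 hr. The dispersed change minus the myofiber-associated change was above 0 for 4 members, beside 8739 genes.

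**Figure D1:**
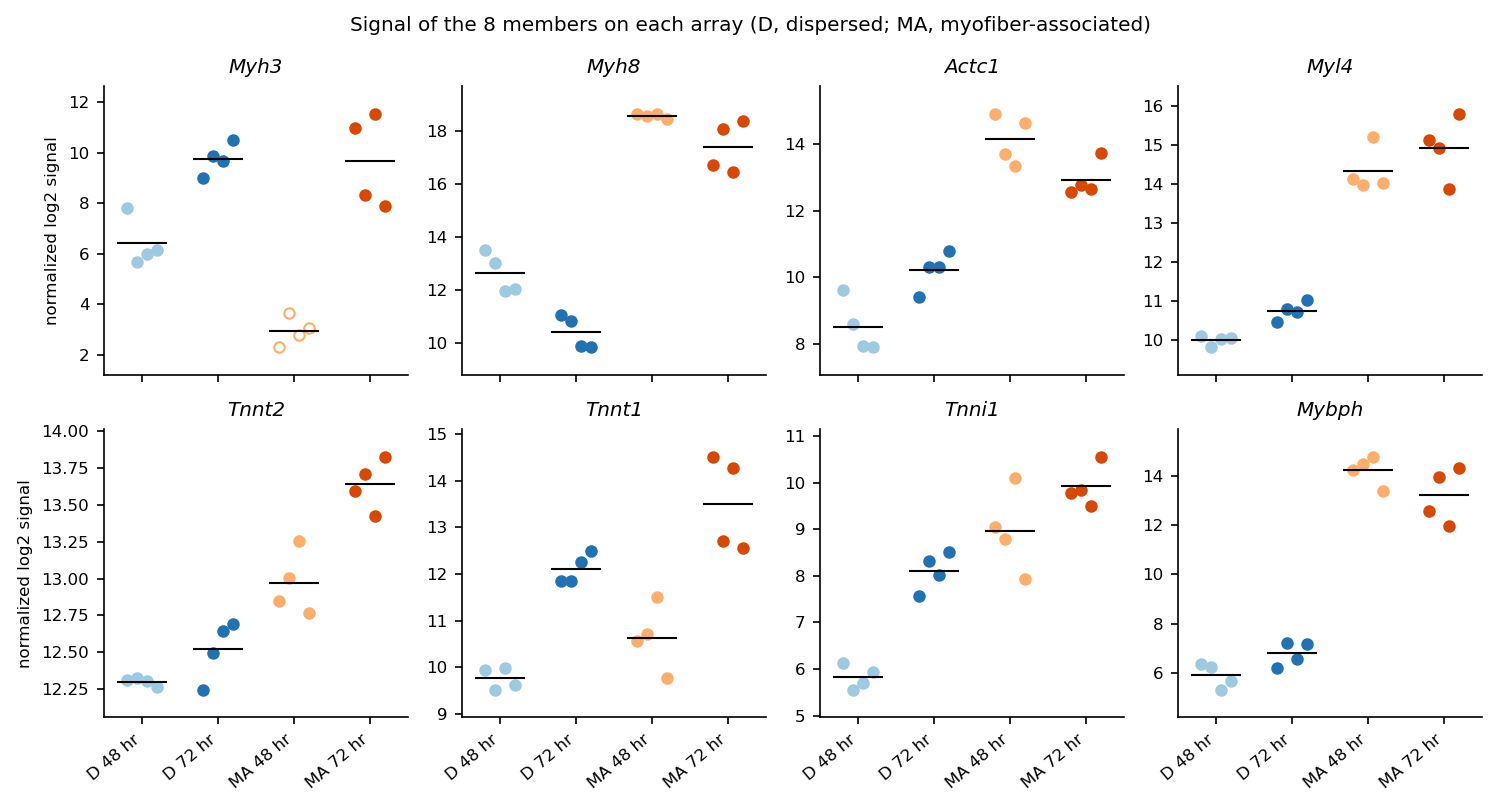
Normalized log2 signal of each of the 8 members on all 16 arrays, by culture and time, with open points for arrays where the probe was not well above background and a bar for the mean of 4 arrays. Myh3 lies at background in the myofiber-associated 48-hr group and is the only member whose signal is lowest there.

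Myh3 encodes embryonic myosin heavy chain, the first fast-type heavy chain of developing muscle and the usual marker of regenerating fibers. Its log2 signal (probe A_55_P2066440, NM_001099635, mm9 chr11:66915724-66915783, plus strand) was 7.80, 5.69, 5.99 and 6.15 on the dispersed 48-hr arrays and 8.99, 9.88, 9.66 and 10.52 on the dispersed 72-hr arrays. It was 2.31, 3.65, 2.78 and 3.06 on the myofiber-associated 48-hr arrays and 10.98, 8.32, 11.54 and 7.89 on the myofiber-associated 72-hr arrays. In both cultures every 72-hr array was above every 48-hr array, and the probe was well above background on 0 of the 4 myofiber-associated 48-hr arrays and on all of the other 12. From the lowest level to the highest, the order was myofiber-associated at 48 hr, dispersed at 48 hr, and then the 72-hr groups, whose means of 9.68 in myofiber-associated and 9.76 in dispersed myoblasts differed by less than the spread of either. Within the myofiber-associated 72-hr group, replicates 1 and 3, which lay in column 1 of their slide, were above replicates 2 and 4, which lay in column 2.

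Myh3 therefore rose with time in both cultures. The rise was 3.36 (SE 0.49, n = 4 against 4, 10.2-fold, limma adjusted p = 0.00215, exact permutation p = 0.0286) in dispersed myoblasts, 2.69 and 4.02 within the 2 slide rows, and 2.62 with normexp background correction. In myofiber-associated myoblasts the fitted rise was 6.73 (SE 0.82, limma adjusted p = 0.00234, exact permutation p = 0.0286) and 6.67 and 6.80 within the rows, and since the 48-hr signal was at background, the message was at least 61.8-fold higher at 72 hr on this scale. That bound was 40.2-fold without myofiber-associated 72-hr replicate 3 and 93.6-fold without replicate 4, with fitted rises of 6.13 and 7.34. Without myofiber-associated 48-hr replicate 7 the rise was 6.53 and its adjusted p 0.0108, just over the threshold, with normexp it was 3.77 with an adjusted p of 0.018, and in the deposited table it was 5.42. The fitted rises differed between the cultures by -3.38 (SE 1.03, limma adjusted p = 0.0412), which is short of the threshold, rests on a group at background, and was -1.16 with normexp (adjusted p 0.449), -2.48 in the deposited table, and -2.76 and -3.98 without myofiber-associated 72-hr replicates 3 and 4. Between the cultures, Myh3 was lower in myofiber-associated myoblasts at 48 hr by a fitted -3.46 (SE 0.47, limma adjusted p = 0.000444), at least 6.38-fold on this scale, and -1.11 with normexp correction (adjusted p 0.00957). At 72 hr the difference was -0.08, with a 95% confidence interval from -2.01 to 1.85 (limma adjusted p = 0.946, exact permutation p = 0.914).

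A second Myh3 probe, A_55_P2083406, lies upstream of the first (mm9 chr11:66915107-66915166, plus strand). It is shown because 24 of its 60 bases, in capitals, also occur in a probe for another heavy chain, Myh15, the longest run that any member's probe shares with a probe of another gene.
Myh3 probe: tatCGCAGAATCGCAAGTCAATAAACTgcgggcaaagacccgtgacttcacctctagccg
This probe gave 3.19 for the rise in dispersed myoblasts (limma adjusted p = 0.00256, among 28197 probes) and was above background on 1 of the 4 myofiber-associated 48-hr arrays, so that no size is given for its differences from that group. Its signal there, at 3.24 to 3.71, was the lowest of the 4 groups, as for the first probe.

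Myh8 encodes perinatal (neonatal) myosin heavy chain, which follows the embryonic form in developing muscle. Its log2 signal (probe A_51_P143296, NM_177369, mm9 chr11:67121925-67121984, plus strand) was 13.48, 13.00, 11.96 and 12.04 on the dispersed 48-hr arrays and 11.06, 10.83, 9.86 and 9.85 on the dispersed 72-hr arrays. It was 18.64, 18.55, 18.64 and 18.44 on the myofiber-associated 48-hr arrays and 16.72, 18.05, 16.45 and 18.37 on the myofiber-associated 72-hr arrays. The 4 groups did not overlap, and the order from lowest to highest was dispersed at 72 hr, dispersed at 48 hr, myofiber-associated at 72 hr and myofiber-associated at 48 hr, an order that no other member had. Of the adult fast heavy chains, Myh4 and Myh1 had the same order of means and Myh2 did not. In that order the means were 10.30, 12.56, 17.30 and 18.32 for Myh4, beside 10.40, 12.62, 17.40 and 18.57 for Myh8. On the myofiber-associated 48-hr arrays this probe ranked 6, 12, 6 and 26 from the brightest of all probes, on the myofiber-associated 72-hr arrays 701, 123, 856 and 40, and on the dispersed arrays between 3788 and 12456. Replicates 7 and 9 of the first group have equal values because quantile normalization sets a value by its rank.

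Both probes placed under the same Myh8 transcript are shown, because they lie far apart along the gene: A_51_P143296, and A_55_P2120161 upstream of it (mm9 chr11:67093475-67093534, plus strand). No long run shared with a probe of another gene on the array was found in either, so no base is in capitals. They were compared with other probes only, so whether they also read the message of another heavy chain was not tested.
Myh8 downstream probe: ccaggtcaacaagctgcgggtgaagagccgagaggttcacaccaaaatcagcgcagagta
Myh8 upstream probe: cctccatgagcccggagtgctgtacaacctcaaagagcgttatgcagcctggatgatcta
In dispersed myoblasts Myh8 fell by 2.22 on the log2 scale from 48 to 72 hr (SE 0.43, n = 4 against 4, limma adjusted p = 0.0071, exact permutation p = 0.0286), with -2.30 and -2.15 within the slide rows. This call needed most of the arrays. The fall was 1.93 to 2.44 with 1 array left out, but its adjusted p was past 0.01 in 6 of 8 such fits: 0.0144 without dispersed 48-hr replicate 1, 0.0241 without replicate 2, 0.011 without replicate 4, and 0.0142, 0.0222 and 0.0178 without dispersed 72-hr replicates 6, 7 and 8. With no filter on low signal the adjusted p was 0.0196, and with the mean of all Myh8 probes the difference was -0.85 with an adjusted p of 0.0108. In myofiber-associated myoblasts the difference was -1.17 (SE 0.41, limma adjusted p = 0.0704, exact permutation p = 0.0286), and the 2 changes differed by -1.05 (limma adjusted p = 0.25).

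Between the cultures Myh8 was higher in myofiber-associated myoblasts on every array, by 5.95 at 48 hr (SE 0.32, 61.7-fold, limma adjusted p = 4.73e-06) and by 7.0 at 72 hr (SE 0.50, 128-fold, limma adjusted p = 4.08e-05). With the mean of all Myh8 probes these differences were 3.25 and 3.24. The upstream probe read 10.62 to 12.10 in myofiber-associated myoblasts at 48 hr and 7.81 to 10.32 at 72 hr, and it was well above background on 2 of 4 dispersed 48-hr arrays and on 0 of 4 at 72 hr. By that probe Myh8 was at least 33.2-fold higher in myofiber-associated myoblasts at 72 hr. Over time it gave -2.56 in myofiber-associated myoblasts (limma adjusted p = 0.0257, among 28197 probes). Its fitted difference between the changes was 1.39 (limma adjusted p = 0.205), opposite in sign to the first probe. The dispersed signal of the upstream probe was at or near background, so neither the size nor the sign of that difference can be read. The other Myh8 probes behaved otherwise: A_51_P239800, placed under a separate transcript name, was below background on all 16 arrays, and A_55_P2120169, named for a cDNA clone, stayed between 4.81 and 6.10 with no difference called.

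Myh3 and Myh8 both lie in the heavy chain cluster of chromosome 11 and moved in opposite directions in dispersed myoblasts, so both promoters are shown, the 250 bases before each start, from RefSeq (GRCm38.p6). The 5 motifs below were searched on both strands: the E-box (CANNTG), the MCAT element (CATTCC), the TATA box (TATAAA), the CArG box and the MEF2 site. Capitals mark the matches, which are in Myh3 an E-box at -191 and a TATA box at -29 from the start, and in Myh8 a MEF2 site at -99, a TATA box at -96 that lies inside it, and an E-box at -32. The TATA match of Myh8 is on the strand opposite to the gene.
Myh3 promoter, chr11:67078050-67078299, plus strand: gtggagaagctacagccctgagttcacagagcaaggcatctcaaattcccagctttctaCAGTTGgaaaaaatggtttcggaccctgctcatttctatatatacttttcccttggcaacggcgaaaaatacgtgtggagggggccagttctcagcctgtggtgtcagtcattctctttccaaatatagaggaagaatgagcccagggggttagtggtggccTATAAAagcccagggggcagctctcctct
Myh8 promoter, chr11:67276874-67277123, plus strand: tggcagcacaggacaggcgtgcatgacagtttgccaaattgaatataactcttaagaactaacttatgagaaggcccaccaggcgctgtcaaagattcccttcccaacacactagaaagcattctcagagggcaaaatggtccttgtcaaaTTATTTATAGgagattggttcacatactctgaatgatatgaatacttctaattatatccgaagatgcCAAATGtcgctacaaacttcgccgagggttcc
Of 32851 promoters of this length, 66.2% hold an E-box, 12.4% a TATA box and 2.92% the MEF2 site, and a match describes letters in this window and nothing about a factor.

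Actc1 encodes cardiac alpha-actin, the sarcomeric actin of the heart that developing and regenerating skeletal muscle also uses before skeletal alpha-actin takes over. Its log2 signal (probe A_55_P2040951, NM_009608, mm9 chr2:113873064-113873123, minus strand) was 9.61, 8.60, 7.94 and 7.91 on the dispersed 48-hr arrays and 9.42, 10.30, 10.32 and 10.78 on the dispersed 72-hr arrays. It was 14.91, 13.71, 13.34 and 14.63 on the myofiber-associated 48-hr arrays and 12.58, 12.77, 12.65 and 13.75 on the myofiber-associated 72-hr arrays. All 8 myofiber-associated arrays were above all 8 dispersed arrays, while the times overlapped within each culture through dispersed 48-hr replicate 1 and myofiber-associated 72-hr replicate 4. The order from lowest to highest was dispersed at 48 hr, dispersed at 72 hr, myofiber-associated at 72 hr and myofiber-associated at 48 hr, and the 72-hr mean lay above the 48-hr mean in dispersed and below it in myofiber-associated myoblasts.

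Neither time difference of Actc1 passed the threshold by itself: it was 1.69 in the dispersed culture (SE 0.43, limma adjusted p = 0.0217) and -1.21 in myofiber-associated myoblasts (SE 0.40, limma adjusted p = 0.0588). Within slide rows 1 and 2 the time difference was 0.75 and 2.62 in dispersed and -1.63 and -0.79 in myofiber-associated myoblasts. The difference between the 2 changes passed the threshold, at 2.90 (SE 0.62, n = 16 arrays, limma adjusted p = 0.00995), with 2.39 and 3.41 within the slide rows. That call sits at the edge of the threshold. Its adjusted p was past 0.01 with slide row as a block (0.0141), normexp (0.0124), no filter on low signal (0.0207), the filter on signal well above background (0.0118) and quantile normalization alone (0.0104). The difference was 2.64 to 3.26 with 1 array left out, and its adjusted p was past 0.01 in 12 of 16 such fits, being below it only without dispersed 48-hr replicate 1, myofiber-associated 72-hr replicate 4, and myofiber-associated 48-hr replicates 9 and 10-11. The values in those 12 fits were 2.78, 2.84 and 2.80 without myofiber-associated 72-hr replicates 1, 2 and 3, and 2.64 and 3.05 without 48-hr replicates 7 and 8. They were 3.16, 2.87, 2.86 and 2.71 without dispersed 72-hr replicates 5, 6, 7 and 8, and 2.93, 2.70 and 2.70 without dispersed 48-hr replicates 2, 3 and 4, with adjusted p from 0.011 to 0.0251. With 1 array left out the dispersed difference alone was called in 1 of 8 fits, without dispersed 48-hr replicate 1 (2.05, adjusted p 0.00552), and both time differences were called in the deposited table (1.48 and -1.26, adjusted p 0.00646 and 0.00866). Between the cultures Actc1 was 5.63 higher in myofiber-associated myoblasts at 48 hr (SE 0.47, limma adjusted p = 3.77e-05) and 2.73 higher at 72 hr (SE 0.34, limma adjusted p = 0.000572).

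The Actc1 promoter is shown because Actc1 is the 1 member whose time differences were called different between the cultures. Capitals mark its CArG box, which begins at -47 from the start, is in 1.47% of all promoters of this length, and is found in no other member's promoter.
Actc1 promoter, chr2:114052876-114053125, minus strand: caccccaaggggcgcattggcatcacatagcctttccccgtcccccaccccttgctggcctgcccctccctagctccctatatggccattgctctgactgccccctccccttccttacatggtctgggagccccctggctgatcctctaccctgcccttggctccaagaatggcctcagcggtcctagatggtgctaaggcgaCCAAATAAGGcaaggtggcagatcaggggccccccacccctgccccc

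Myl4 encodes the atrial and embryonic alkali light chain of myosin. Its log2 signal (probe A_55_P2107045, NM_010858, mm9 chr11:104448441-104448500, plus strand) was 10.10, 9.82, 10.00 and 10.03 on the dispersed 48-hr arrays and 10.44, 10.79, 10.72 and 11.02 on the dispersed 72-hr arrays. It was 14.12, 13.97, 15.20 and 14.02 on the myofiber-associated 48-hr arrays and 15.14, 14.93, 13.86 and 15.80 on the myofiber-associated 72-hr arrays. The dispersed groups did not overlap, the myofiber-associated groups did, and every myofiber-associated array was above every dispersed array. The order from lowest to highest was dispersed at 48 hr, dispersed at 72 hr, and the 2 myofiber-associated groups, which did not differ beyond their spread.

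Myl4 rose in dispersed myoblasts by 0.75 (SE 0.12, limma adjusted p = 0.00313, exact permutation p = 0.0286), with 0.66 and 0.85 within the slide rows. Its adjusted p was 0.0112 without dispersed 48-hr replicate 2 (difference 0.70), 0.0104 without replicate 3 (0.76), 0.0115 without dispersed 72-hr replicate 6 (0.74) and 0.0108 without replicate 7 (0.76), and 0.193 in a single fit of all 16 arrays. In myofiber-associated myoblasts the difference was 0.61 (limma adjusted p = 0.31), and the 2 changes differed by 0.15 (limma adjusted p = 0.846). Within the slide rows the former was 0.99 and 0.22, and the latter -0.33 and 0.63. With 1 array left out the former was 0.32 to 0.96. Myl4 was 4.34 higher in myofiber-associated myoblasts at 48 hr (SE 0.26, limma adjusted p = 7.69e-06) and 4.19 higher at 72 hr (SE 0.36, limma adjusted p = 0.000105).

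Troponin T anchors the troponin complex to tropomyosin, and troponin I holds the thin filament off until calcium arrives. Of the troponin T genes, Tnnt2 is the cardiac form, which embryonic skeletal muscle also makes, and Tnnt1 is the slow skeletal form. Tnni1 is the slow skeletal troponin I, which embryonic muscle makes widely.

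The log2 signal of Tnnt2 (probe A_51_P338262, NM_011619, on both sides of an intron at mm9 chr1:137747976-137748288, plus strand) was 12.31, 12.33, 12.30 and 12.26 on the dispersed 48-hr arrays and 12.25, 12.49, 12.64 and 12.69 on the dispersed 72-hr arrays. It was 12.85, 13.00, 13.25 and 12.77 on the myofiber-associated 48-hr arrays and 13.59, 13.71, 13.42 and 13.83 on the myofiber-associated 72-hr arrays. The dispersed groups overlapped and were the lowest, and the myofiber-associated arrays were higher at 48 hr and highest at 72 hr with no overlap. Tnnt2 had the smallest difference between the cultures at 48 hr among the 7 members called there, 0.67 (SE 0.11, limma adjusted p = 0.00104), and 1.12 at 72 hr (SE 0.12, limma adjusted p = 0.000323). With time its difference was 0.22 in dispersed (limma adjusted p = 0.124) and 0.67 in myofiber-associated myoblasts (SE 0.14, limma adjusted p = 0.014, exact permutation p = 0.0286). The latter was called in 2 of 9 other settings, a single fit of all 16 arrays (adjusted p 0.000631) and the deposited table (0.00427), and the 2 changes differed by -0.45 (limma adjusted p = 0.0773).

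The log2 signal of Tnnt1 (probe A_55_P2088385, NM_001277903, mm9 chr7:4456265-4456324, minus strand) was 9.95, 9.52, 9.97 and 9.63 on the dispersed 48-hr arrays and 11.85, 11.84, 12.25 and 12.48 on the dispersed 72-hr arrays. It was 10.56, 10.71, 11.49 and 9.78 on the myofiber-associated 48-hr arrays and 14.51, 12.70, 14.26 and 12.55 on the myofiber-associated 72-hr arrays. Every 72-hr array was above every 48-hr array, in either culture, and at 48 hr the cultures overlapped through myofiber-associated replicate 10-11. The order from lowest to highest was dispersed at 48 hr, myofiber-associated at 48 hr, dispersed at 72 hr and myofiber-associated at 72 hr. At 72 hr the myofiber-associated arrays were all above the dispersed arrays, with replicates 1 and 3, in slide column 1, again above replicates 2 and 4, in column 2, as for Myh3.

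Tnnt1 rose in dispersed myoblasts by 2.34 (SE 0.17, 5.06-fold, limma adjusted p = 9.5e-05, exact permutation p = 0.0286), with 2.11 and 2.57 within the slide rows. In myofiber-associated myoblasts the difference was 2.87 (SE 0.53, limma adjusted p = 0.0101, exact permutation p = 0.0286), just short of the threshold, and 2.97 and 2.77 within the rows. With 1 array left out it was 2.53 to 3.19, and it was called in 1 of 8 such fits, without myofiber-associated 72-hr replicate 4 (adjusted p 0.00815), and not in the other 7 (up to 0.0336). It was also called in 4 of 9 other settings, 75th percentile scaling (0.00912), the mean of all probes (0.00829), a single fit of all 16 arrays (0.000176) and the deposited table (0.00608), and the other Tnnt1 probe, A_55_P2027521 (mm9 chr7:4456172-4456231), gave 3.21 with an adjusted p of 0.00693 among 28197 probes. The 2 changes differed by -0.53 (limma adjusted p = 0.549). Between the cultures the difference was 0.87 at 48 hr (limma adjusted p = 0.0436, exact permutation p = 0.0857) and 1.40 at 72 hr (limma adjusted p = 0.0386, exact permutation p = 0.0286), and Tnnt1 was the only member called in neither. With 1 array left out the 48-hr difference was 0.58 to 1.16, called in 1 of 8 such fits, without replicate 10-11 (1.16, adjusted p 0.00298), and not in the other 7 (up to 0.103). By the other Tnnt1 probe it was 0.54 (adjusted p 0.209).

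The log2 signal of Tnni1 (probe A_52_P657360, NM_021467, on both sides of an intron at mm9 chr1:137705328-137706203, plus strand) was 6.12, 5.56, 5.70 and 5.94 on the dispersed 48-hr arrays and 7.56, 8.32, 8.02 and 8.51 on the dispersed 72-hr arrays. It was 9.05, 8.79, 10.11 and 7.94 on the myofiber-associated 48-hr arrays and 9.78, 9.85, 9.50 and 10.56 on the myofiber-associated 72-hr arrays. The dispersed groups were apart, the myofiber-associated groups overlapped, and at each time the myofiber-associated arrays were all above the dispersed ones. The order from lowest to highest was dispersed at 48 hr, dispersed at 72 hr, myofiber-associated at 48 hr and myofiber-associated at 72 hr, with overlap between the middle groups and between the last ones. Tnni1 rose in dispersed myoblasts by 2.27 (SE 0.21, 4.83-fold, limma adjusted p = 0.000254, exact permutation p = 0.0286), with 2.10 and 2.45 within the slide rows and 1.47 with normexp correction. In myofiber-associated myoblasts it differed by 0.95 (limma adjusted p = 0.132), and the changes differed by 1.32 (limma adjusted p = 0.0889), or 0.64 with normexp. It was higher in myofiber-associated myoblasts by 3.14 at 48 hr (SE 0.40, limma adjusted p = 0.000316; 2.23 with normexp) and by 1.82 at 72 hr (SE 0.27, limma adjusted p = 0.00121).

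The Tnnt1 promoter is shown as that of the troponin member with the largest time difference in each culture. Capitals mark an E-box at -158 and a TATA box at -30 from the start.
Tnnt1 promoter, chr7:4515976-4516225, minus strand: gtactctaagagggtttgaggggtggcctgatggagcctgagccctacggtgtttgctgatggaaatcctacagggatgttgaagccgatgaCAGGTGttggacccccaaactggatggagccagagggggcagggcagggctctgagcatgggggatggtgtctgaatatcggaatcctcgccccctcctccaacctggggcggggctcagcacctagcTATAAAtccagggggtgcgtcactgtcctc
RefSeq gives 2 starts each for Tnnt2 and Tnni1, and each of those promoters holds at least 1 E-box, while the Myl4 promoter holds none of the 5 motifs.

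Mybph encodes myosin binding protein H, a relative of the C proteins of the thick filament. Its log2 signal (probe A_51_P137121, NM_016749, on both sides of an intron at mm9 chr1:136096999-136097558, plus strand) was 6.39, 6.26, 5.33 and 5.67 on the dispersed 48-hr arrays and 6.21, 7.21, 6.59 and 7.19 on the dispersed 72-hr arrays. It was 14.24, 14.49, 14.77 and 13.37 on the myofiber-associated 48-hr arrays and 12.59, 13.95, 11.98 and 14.33 on the myofiber-associated 72-hr arrays. The order from lowest to highest was dispersed at 48 hr, dispersed at 72 hr, myofiber-associated at 72 hr and myofiber-associated at 48 hr, as for Actc1, with the times overlapping in both cultures and the cultures far apart. Mybph was 8.30 higher in myofiber-associated myoblasts at 48 hr (SE 0.34, 316-fold, limma adjusted p = 1.53e-06) and 6.41 higher at 72 hr (SE 0.52, 85.2-fold, limma adjusted p = 8.25e-05), and by 7.29 and 5.76 with normexp correction. With time its difference was 0.89 in dispersed (limma adjusted p = 0.0656) and -1.01 in myofiber-associated myoblasts (limma adjusted p = 0.192), and the changes differed by 1.89 (limma adjusted p = 0.0659). Within the myofiber-associated 72-hr group, replicates 2 and 4 in column 2 were above replicates 1 and 3 in column 1 for Mybph, Myh8, Actc1, Tnnt2 and Tnni1, the reverse of Myh3 and Tnnt1. Myl4 followed neither order.

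The Mybph promoter is shown as that of the member with the largest difference between the cultures at 48 hr. Capitals mark an E-box at -79 from the start, an MCAT element that follows it directly at -73, and a TATA box at -39. The MCAT and TATA matches here are on the strand opposite to the gene.
Mybph promoter, chr1:134193198-134193447, plus strand: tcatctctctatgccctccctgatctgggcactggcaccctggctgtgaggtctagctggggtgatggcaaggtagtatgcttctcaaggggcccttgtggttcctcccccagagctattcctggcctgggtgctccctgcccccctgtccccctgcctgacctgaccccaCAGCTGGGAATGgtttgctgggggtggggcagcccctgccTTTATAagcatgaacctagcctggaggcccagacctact
Over all 8 members, each of which matched at least 1 of 10 RefSeq promoters, 6 had an E-box, 4 a TATA box, 2 an MCAT element (Tnnt2 and Mybph, against 12.6% of all promoters), 1 the MEF2 site and 1 the CArG box, on either strand.

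**Figure D2:**
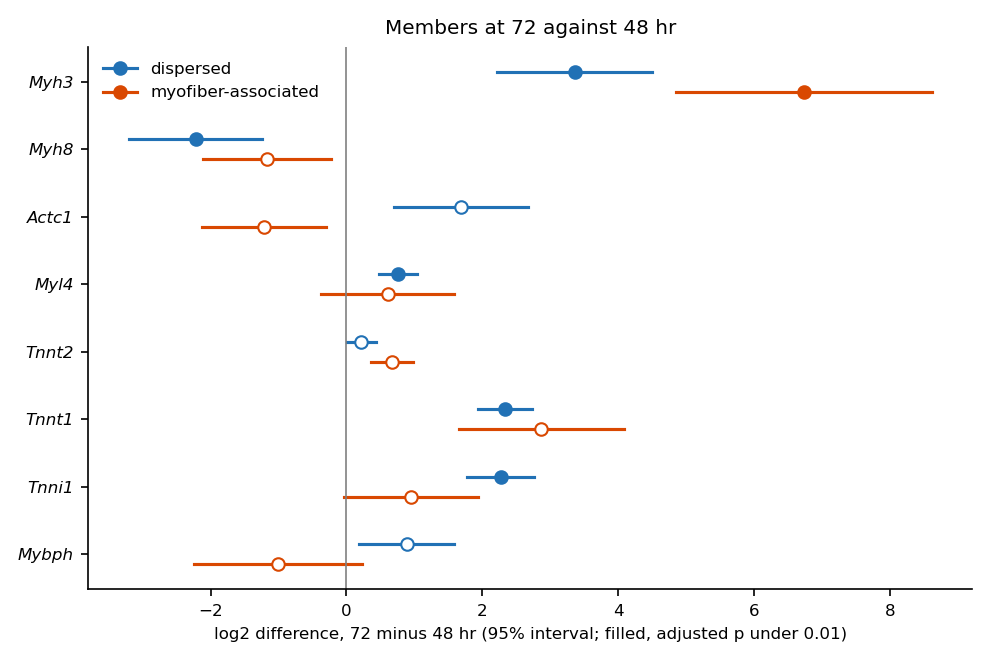
Log2 difference of each member from 48 to 72 hr in dispersed and in myofiber-associated myoblasts, with 95% confidence intervals (n = 4 against 4 arrays) and filled points for adjusted p under 0.01. Myh3 is highest in both cultures, at 3.36 and at a fitted 6.73 that is drawn against a 48-hr group at background and stands for at least 61.8-fold, Myh8 is below 0 in both, and Actc1 and Mybph lie on opposite sides of 0.

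**Figure D3:**
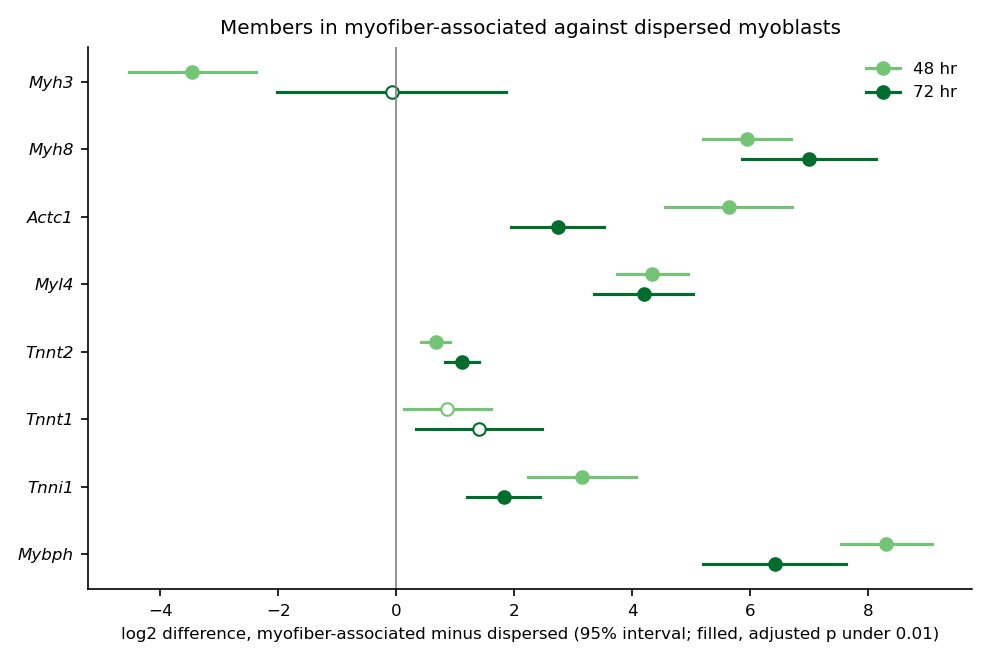
Log2 difference of each member between myofiber-associated and dispersed myoblasts at 48 and at 72 hr, with 95% confidence intervals (n = 4 against 4 arrays) and filled points for adjusted p under 0.01. Mybph and Myh8 have the largest differences at both times, and Myh3 is below 0 at 48 hr and near 0 at 72 hr.

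The plot of time differences thus separates the members by direction. Myh3, Tnnt1, Tnni1, Tnnt2 and Myl4 had differences above 0 in both cultures and Myh8 below 0 in both, while Actc1 and Mybph were above 0 in dispersed and below 0 in myofiber-associated myoblasts. The plot of culture differences separates Myh3 from the other 7 members at 48 hr.

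Adult fiber markers moved with the difference between the cultures. The study describes the stripped preparations as highly pure and as carrying no fiber RNA. The list has 20 genes, 19 of them on the array, with 9 of the 20 also among the sarcomere counterparts of the members described further on, and differentiating myoblasts also make several of its proteins. Its summed linear signal was 165053, 130298, 111551 and 111068 on the dispersed 48-hr arrays and 101784, 97075, 103056 and 110868 on the dispersed 72-hr arrays, where 18 or 19 of 19 genes were well above background. It was 3739750, 3239920, 3678510 and 2835150 on the myofiber-associated 48-hr arrays and 1029890, 2356280, 754250 and 2753040 on the myofiber-associated 72-hr arrays, with 19 of 19 above background. Every myofiber-associated array was above every dispersed array, and among the 72-hr arrays replicates 2 and 4 were above replicates 1 and 3, as for Myh8, Mybph, Actc1, Tnnt2 and Tnni1 and opposite to Myh3 and Tnnt1. The order was narrow for Tnni1, Tnnt2 and Actc1. Their replicate 2 read 9.85, 13.71 and 12.77, and the higher of replicates 1 and 3 read 9.78, 13.59 and 12.65. Myl4 followed neither order. The brightest marker was Eno3, muscle enolase, on the dispersed arrays, with 44.9% to 84.3% of the sum, and Tnnc2, Tnni2 or Eno3 on the myofiber-associated arrays, with 11.9% to 20.3%. The fast light chain Mylpf was above background on 1 of 4 dispersed 48-hr and 2 of 4 dispersed 72-hr arrays.

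Of the 19 fiber markers, 19 were higher in myofiber-associated myoblasts at 48 hr, with a median difference of 6.01, and 18 at 72 hr, with a median of 5.92, beside the members' medians of 3.74 and 2.28. From 48 to 72 hr, 10 fell and 1 rose in dispersed myoblasts (median -1.53), 1 fell and 0 rose in myofiber-associated myoblasts (median -1.94), and 1 had a higher change in dispersed than in myofiber-associated myoblasts. The marker that fell in myofiber-associated myoblasts was Myh2 and the one with the higher dispersed change Ryr1. The part of fiber RNA in the members' differences between the cultures, and in those over time, was not tested. Myh3 moved the other way from these markers at 48 hr, being lowest on the arrays where their sum was highest.

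**Figure D4:**
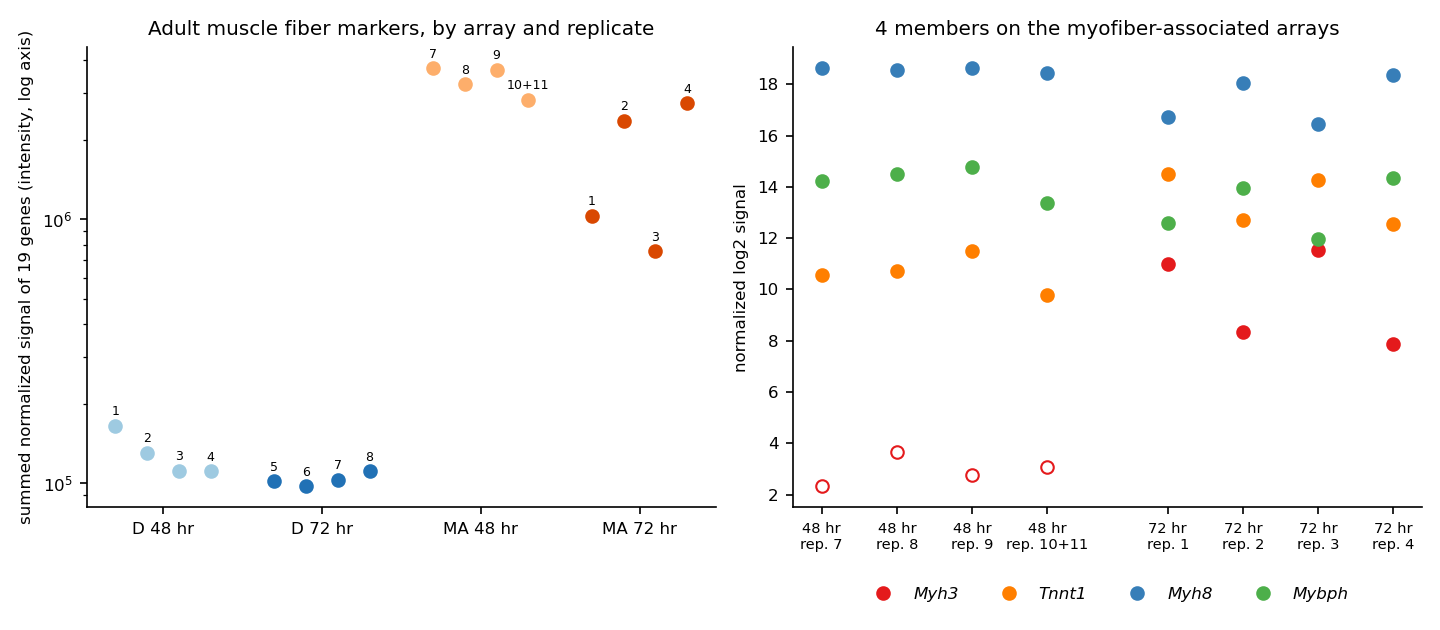
Summed linear signal of the 19 adult fiber markers on each of the 16 arrays, on a log axis, beside the log2 signals of Myh3, Myh8, Tnnt1 and Mybph on the 8 myofiber-associated arrays. The myofiber-associated 48-hr arrays have the highest sums, 2835150 to 3739750, and the lowest Myh3.

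All 10 satellite cell and myoblast markers listed, Pax7, Myf5 and Myod1 among them, were well above background on every array. So were 7 or 8 of 8 endothelial and 7 or 8 of 8 fibroblast markers, so detection does not tell these cell types apart. The summed linear signal of the satellite cell and myoblast markers was 166309 to 188070 on the dispersed 48-hr arrays, 197054 to 263642 at 72 hr, and in myofiber-associated myoblasts 190898 to 259915 and then 307057 to 336447. The brightest of them, Chrna1, Itga7 or Des, held 27.2% to 50.2% of that sum. With time 4 of 10 rose in each culture and 0 fell, and between the cultures 1 was higher and 3 lower in myofiber-associated myoblasts at 48 hr, and 3 higher and 0 lower at 72 hr. For 3 of 10, Pax7 at -1.49, Sdc3 at -1.17 and Chrna1 at -0.88, the dispersed change was below the myofiber-associated change, and 0 were above it.

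Because Actc1, Tnnt2 and Myl4 are also heart genes and Tnni1 and Tnnt1 slow fiber genes, markers of both tissues were read beside them. Of 10 cardiac muscle markers, 4 to 6 were above background on an array, and Mybpc3, Myl7 and Ryr2 on none of the 16. The cardiac sum was 211 to 225 on the dispersed 48-hr arrays, 523 to 716 at 72 hr, and in myofiber-associated myoblasts 1132 to 1910 and then 314 to 918, with Nppb brightest in dispersed and Sln in myofiber-associated myoblasts. Of the 3 cardiac markers tested, Nppb (2.84) and Nppa (0.55) rose in dispersed myoblasts, 0 were called in myofiber-associated myoblasts over time, and both had a higher dispersed change. Between the cultures Sln and Nppa (0.88) were higher in myofiber-associated myoblasts at 48 hr, and Sln was higher and Nppb (-2.65) lower at 72 hr. No size is given for Sln, which was well above background on 1 of 4 dispersed arrays at 48 hr and 0 of 4 at 72 hr. Of 8 slow fiber markers, 7 were tested, and the 8th, Myh7b, was above background on at most 1 array of a group. Their sum was 178466 to 191369 on the dispersed 48-hr arrays, 185348 to 203127 at 72 hr, and in myofiber-associated myoblasts 104974 to 129960 and then 103588 to 124809, of which Tpm3, a tropomyosin that non-muscle cells also make, held 90.5% to 98.9%. Of the 7, 1 rose in dispersed myoblasts (Tnnc1), 2 fell in myofiber-associated myoblasts and had a higher dispersed change (Myl2 and Myl3), and at 48 hr those 2 were higher and Tpm3 lower in myofiber-associated myoblasts, as was Tpm3 at 72 hr.

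As counterparts of the members, 23 further contractile protein genes were listed, of which 20 could be tested: other genes of the members' families, and regulatory light chain, troponin C and tropomyosin genes, which belong to no member's family. In dispersed myoblasts 3 rose and 5 fell, with a median of -0.70 against 1.29 for the members. Those that rose were Tpm1 (1.20), Tnnc1 (1.05) and Myl6b (0.73), an alpha-tropomyosin, the slow and cardiac troponin C and an alkali light chain of slow muscle and non-muscle cells. Among the 5 called falls the largest 4 were those of Mybpc2, fast myosin binding protein C, at -2.28 (limma adjusted p = 0.00548), the adult fast heavy chain Myh4 at -2.26 (limma adjusted p = 0.00888), and the fast troponins Tnnc2 at -2.0 (limma adjusted p = 0.00622) and Tnni2 at -1.53 (limma adjusted p = 0.00701). Myh2 at -2.08 (limma adjusted p = 0.0124) and Myl2 at -1.63 (limma adjusted p = 0.0116) were lower than some of these and missed the threshold. In myofiber-associated myoblasts 0 rose and 3 fell, Myl3, Myh2 and Myl2, with a median of -1.05 against 0.64 for the members. For Myl2 and Myl3, the regulatory and alkali light chains of slow and ventricular muscle, the dispersed change was higher than the myofiber-associated one, by 2.51 (limma adjusted p = 0.00507) and 4.06 (limma adjusted p = 0.0053).

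Within most families the member and 1 or more of its counterparts can be set side by side as differences over time. Beside the rise of Myh3 and the fall of Myh8 in dispersed myoblasts, the adult heavy chain Myh1 fell by 1.20 on the log2 scale (limma adjusted p = 0.00202). Beside Actc1 at 1.69 and -1.21, skeletal actin Acta1 differed by -0.50 in dispersed (limma adjusted p = 0.136) and -1.27 in myofiber-associated myoblasts (limma adjusted p = 0.0667). Beside Myl4 at 0.75, the fast alkali light chain Myl1 differed by -1.44 in dispersed myoblasts (limma adjusted p = 0.0199). Beside Tnnt1 at 2.34 and 2.87, fast Tnnt3 differed by -0.90 (limma adjusted p = 0.0554) and -1.53 (limma adjusted p = 0.0745). Beside Tnni1 at 2.27 and 0.95, fast Tnni2 fell in dispersed myoblasts and differed by -1.08 in myofiber-associated myoblasts (limma adjusted p = 0.117). Beside Mybph at 0.89 and -1.01, Mybpc1 differed by -0.46 (limma adjusted p = 0.0168) and -2.10 (limma adjusted p = 0.0122). In dispersed myoblasts 7 of the 20 counterparts lay above 0: Tpm1, Tnnc1 and Myl6b, which were called, and Tpm2 at 0.42, Acta2 at 0.39, Tpm3 at 0.07 and Mylpf, near background, at a fitted 0.96, which were not. Differences between probes were not tested.

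Between the cultures 16 counterparts were higher in myofiber-associated myoblasts at 48 hr and 2 were lower, with a median of 4.92 beside the members' 3.74. At 72 hr 12 were higher and 2 lower, with a median of 3.29 beside 2.28. Mylpf, which was at or near background on most dispersed arrays, is left out of the next comparison. The largest of the others at 48 hr were Mybpc2 at 7.55, Tnnt3 at 6.55 and Acta1 at 6.01, and at 72 hr Mybpc2 at 7.83, Myh4 at 7.0 and Myl1 and Tnnc2 at 6.45 each.

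**Figure D5:**
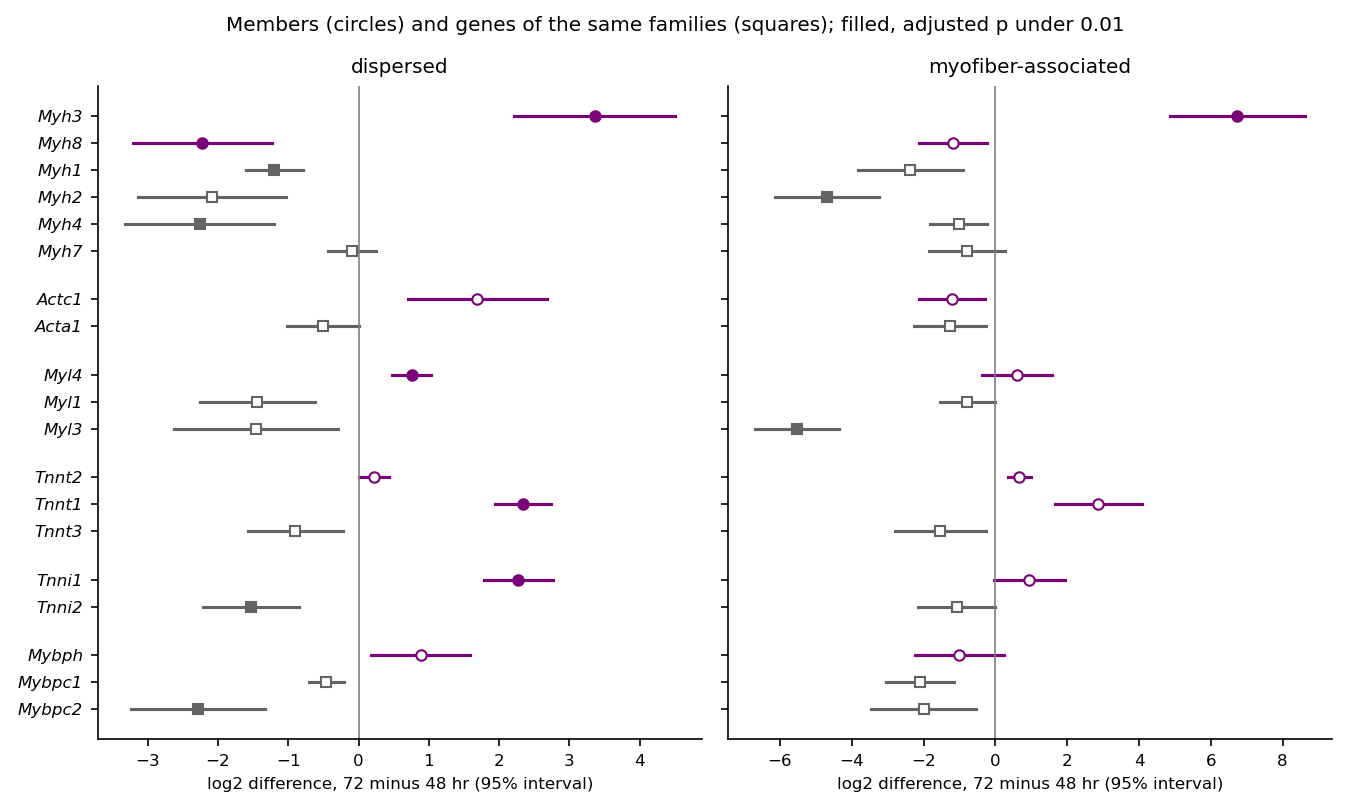
Log2 difference from 48 to 72 hr of each member and of tested genes chosen from its protein family, in dispersed and in myofiber-associated myoblasts, filled where adjusted p was under 0.01. Members are drawn apart from their counterparts, and Myh3 has the largest rise of the genes drawn in both cultures.

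A list of myogenic regulators held transcription factors of muscle, inhibitors of them, and 2 genes of other kinds, the cell-cycle inhibitor Cdkn1a and the fusion protein myomaker, and 17 of its 18 names were on the array, with myomaker under its older name Tmem8c. Among those called in dispersed myoblasts over time were Myog, myogenin, at 3.92 (limma adjusted p = 4.78e-05), Tmem8c at 1.33 (limma adjusted p = 0.000214) and Mef2c at -1.50 (limma adjusted p = 0.00017). Among those called in myofiber-associated myoblasts were Tmem8c at 2.30 (limma adjusted p = 0.00456), Id2 at 0.93 (limma adjusted p = 0.00919) and Id3 at 0.79 (limma adjusted p = 0.00146). Myog differed by -0.64 there (limma adjusted p = 0.312), and its dispersed change was higher by 4.55 (limma adjusted p = 0.000481), the direction of Actc1, while that of Id3 was lower, at -0.60 (limma adjusted p = 0.00251). Between the cultures 6 regulators were higher in myofiber-associated myoblasts at 48 hr and 2 were lower, led by Myf6 at 8.92 and Myog at 8.25, and 5 were higher and 0 lower at 72 hr, led by Myf6 at 7.67 and Myog at 3.70.

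Across the 16 arrays the members followed their common profile, the mean of their standardized log2 signals, to unequal degrees. Each member is part of that mean, and the arrays fall into the 4 groups, so these values of Pearson's r are a description. They were 0.960 for Tnnt2, 0.953 for Tnni1, 0.951 for Myl4, 0.887 for Mybph, 0.850 for Actc1, 0.748 for Myh8 and 0.711 for Tnnt1, and 0.101 for Myh3. Among the other tested genes that had a symbol in use and were well above background throughout at least 1 group, the 5 highest values of r to this profile were those of Tmem151a at 0.985, Tle6 at 0.969, Plcd3 and Tln2 at 0.966 and Pard3 at 0.965. Tmem151a, a membrane protein gene, differed over time by 0.84 in the dispersed culture and by 0.77 in the other, where it was higher by 1.98 at 48 hr and 1.90 at 72 hr, a description with no test, since it was chosen for this pattern.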

How the data were processed

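RNA of 16 samples, 4 per culture and time, was read on one-color arrays. Per spot, the authors deposited an intensity, background-corrected by Feature Extraction 11.0.1.1 per the file headers, with other values that are 0 or 1 flags per the file headers. The authors also deposited a table of log ratios whose base is not stated and was taken as log2, the ratio of every 72-hr sample to the 48-hr average of the same culture. The log2 processed signal, without outlier spots, was fitted by loess to the culture's 48-hr mean (span 0.3, 4 iterations) and then quantile-normalized over all arrays. Each gene name was read by its brightest probe, and a median log2 signal of 5 was the minimum for testing. Where all 4 arrays of a group left a member's probe at background, a bound was given, from the lowest signal well above background on each array, and again with 1 array left out of the values normalized together. No gene spot was saturated, and the number of arrays limits the precision. The base was taken from the slopes of that table against the mean log2 differences, 0.918 (dispersed) and 0.934 (myofiber-associated) across 20317 genes. The code was tested on simulated data.

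Groups were compared with limma 3.58.1 (R 4.3.3, with data.table at version 1.17.8), two-sided, adjusting by Benjamini-Hochberg across tested genes with a threshold of 0.01, and single members with exact permutation tests. Times were compared within each culture, cultures within each time, and the changes by the interaction over 16 arrays. The members and lists (contractile protein counterparts, myogenic regulators and markers of satellite cells, adult fibers, slow fibers, cardiac muscle, smooth muscle, fibroblasts, endothelium, leukocytes and Schwann cells) were chosen with earlier results of these data known. Named from a list were its family counterparts and up to 4 of its called genes with the largest differences per comparison; further genes behind small counts were named after their values were seen. The result of 1 listed gene is not reported here. As genes of like pattern, the 5 with the highest r to the members' mean profile were named, among genes well above background on every array of at least 1 group and passing over names without a gene symbol in use; the first of these limits was not planned. Each array was left out in turn, and the other alternatives were the slide row as a block, a single fit of all 16 arrays, the deposited table, the mean of all probes, a filter by the above-background flag, no filter, quantile normalization without loess, 75th percentile scaling and normexp correction (offset 50).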

Additional observations from a re-analysis of the deposited data

Results flagged for a closer look

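Within a group of 4 arrays, a sample stands apart when its gap to the nearest other sample takes up most of the group's range (Dixon's 95% critical value), which chance gives in about 1 in 20 groups, and 32 groups were tested over the 8 members. For Actc1, myofiber-associated 72-hr replicate 4, at a log2 signal of 13.75, was above the other 3 arrays, with a gap of 0.837 of the range. For Myl4, myofiber-associated 48-hr replicate 9, at 15.20, was above the other 3, with a gap of 0.880 of the range. The time differences of Actc1 in the 2 cultures differed by 2.90 on the log2 scale in the test of that difference. Their causes were not tested.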

How the results depend on the processing

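No paired analysis was possible because the replicate numbers of the groups compared do not overlap and the labels link no 48-hr preparation to a 72-hr one. Of 720 refitted member differences, 670 kept their direction and their side of the threshold, 32 kept their direction and missed the threshold, 11 newly passed it and 7 changed sign. Over time these were 121, 13, 2 and 0 of 136 in dispersed myoblasts and 126, 2, 8 and 0 of 136 in myofiber-associated myoblasts, and 172, 17, 0 and 3 of 192 for the difference between the changes. Between the cultures they were 127, 0, 1 and 0 of 128 at 48 hr and 124, 0, 0 and 4 of 128 at 72 hr. None of the 7 that changed sign had been called. Myh3 at 72 hr between the cultures (-0.08) was 0.048 with normexp, 0.37 and 0.52 without myofiber-associated 72-hr replicates 2 and 4 and 0.17 without dispersed replicate 8, over a range of -0.70 to 0.52 with 1 array left out. The interaction of Myh8 was 0.014 with the mean of all probes, and that of Myl4 (0.15) was -0.21 without myofiber-associated 72-hr replicate 3 and -0.15 without 48-hr replicate 9, over a range of -0.21 to 0.44.

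The count of genes called in dispersed myoblasts over time (2789) was 999 in 1 fit of all 16 arrays. The count in myofiber-associated myoblasts (1114) was 467 with no filter, where more genes are tested, 570 with slide row as a block, 5782 in 1 fit of all 16 arrays and 3787 in the deposited table. The count for the difference between the changes (701) was 411 with no filter and 3823 in the deposited table. The count of members called in myofiber-associated myoblasts (1) was 0 with normexp, 2 with 75th percentile scaling and with the mean of all probes, 3 in 1 fit of all 16 arrays and 4 in the deposited table. The count for the difference between the changes (1) was 0 with normexp, quantile normalization alone, no filter, the filter on signal well above background and slide row as a block. With 1 array left out, genes called were 1651 to 2473 in dispersed and 246 to 2006 in myofiber-associated myoblasts, 292 to 2357 for the difference between the changes, 6355 to 11145 between the cultures at 48 hr and 3277 to 5644 at 72 hr, and members called were 3 to 5, 0 to 2, 0 to 1, 7 to 8 and 6 to 6. Except for the lack of a filter, the cause was not tested. With normexp, where 34836 genes passed the filter and not 20317, the median difference of all genes between the cultures at 48 hr moved by 0.10, and no called gene of the lists changed direction under any of the scalings. Signal over background limits Myh3 at 48 hr in myofiber-associated myoblasts, and Myh8 by its upstream probe in dispersed myoblasts, to bounds.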

Other observations

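Genes of other cell types that muscle tissue holds were read beside the members. The summed linear signal of 9 smooth muscle and pericyte markers was 90979 to 144732 on the dispersed 48-hr arrays, 132405 to 221941 at 72 hr, and in myofiber-associated myoblasts 65391 to 101597 and then 38221 to 74663. Of the 8 tested, 6 were lower and 1 higher in myofiber-associated myoblasts at 48 hr and 5 lower and 1 higher at 72 hr, the higher one being desmin (Des), which muscle cells also make. Over time 2 rose and 1 fell in dispersed and 1 fell in myofiber-associated myoblasts, and 0 differed between those changes. The sum of 8 fibroblast markers was 116666 to 168753 and 98960 to 154866 on the dispersed arrays at 48 and 72 hr, and 98655 to 213125 and 52107 to 81801 on the myofiber-associated arrays. Of the 7 tested, 0 were called in dispersed myoblasts over time and 2 fell in myofiber-associated myoblasts, 1 had a higher dispersed change, 2 were lower in myofiber-associated myoblasts at 48 hr, and 5 were lower and 1 higher at 72 hr.

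The sum of 8 endothelial markers was 82342 to 108898 and 30482 to 43482 on the dispersed arrays at 48 and 72 hr, and 14358 to 30762 and 9952 to 11410 on the myofiber-associated arrays. Over time 7 of 8 fell in dispersed and 5 in myofiber-associated myoblasts, 1 had a higher dispersed change, and 7 were lower in myofiber-associated myoblasts at each time. The sum of 8 leukocyte markers was 16151 to 18953 and 14809 to 16688 on the dispersed arrays, and 20635 to 29089 and 15936 to 19952 on the myofiber-associated arrays. Of the 7 tested, 1 rose and 2 fell in dispersed myoblasts, 1 rose in myofiber-associated myoblasts, 1 had a lower dispersed change, and 1 was higher and 4 lower in myofiber-associated myoblasts at 48 hr and 1 higher and 3 lower at 72 hr. The sum of 8 Schwann cell markers was 7404 to 9224 and 5752 to 6650 on the dispersed arrays, and 3008 to 4020 and 2408 to 3361 on the myofiber-associated arrays. Of the 6 tested, 3 fell in dispersed and 0 were called in myofiber-associated myoblasts over time, 0 differed between those changes, and 5 were lower in myofiber-associated myoblasts at 48 hr and 4 at 72 hr. The part of these cell types in the members' differences was not tested.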
